A study of Homo sapiens with 12 samples.

Results

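The MAPK feedback genes are 10 genes that ERK signalling is known to switch on and that mostly act back on it. They were taken by name, by matching the Ensembl identifiers of the expression values to gene symbols, as DUSP4, DUSP5, DUSP6, SPRY2, SPRY4, SPRED1, PHLDA1, ETV4, ETV5 and EPHA2, which makes 10 of the 57815 genes listed in each library. RNA was sequenced from 3 established lung cancer cell lines, A549 and H2023 (lung adenocarcinoma) and H460 (lung large cell carcinoma), all labelled as KEAP1 mutation positive. KEAP1 directs the degradation of the transcription factor NRF2, so NRF2 accumulates in such cells. Cells received control siRNA or siRNA against NRF2 and were harvested 48 h later, with 2 libraries in each of the 6 groups. In every line the NRF2 siRNA library numbered 0 was made with siRNA 28 and the library numbered 1 with siRNA 30, so the spread of an NRF2 siRNA group holds the difference between siRNAs as well as that between cultures. A549 was grown in high glucose medium and its rRNA was removed, whereas H2023 and H460 were grown in low glucose medium and their polyA RNA was selected, so for A549 line, medium and library protocol cannot be told apart. Knockdown was by siRNA, so some NRF2 transcript remained, and each line stands for 1 tumour.

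In the RAS-ERK pathway, growth factor receptors load RAS with GTP, RAS recruits RAF kinases, RAF phosphorylates MEK, and MEK phosphorylates the kinases ERK1 and ERK2, which act on transcription factors in the nucleus. ERK activity induces its own inhibitors. These include dual-specificity phosphatases (DUSPs), which remove the activating phosphates from MAP kinases, and the Sprouty and SPRED proteins, which dampen the steps between receptor and RAF, while ETS-family factors such as ETV4 and ETV5 carry the output to other genes. The transcript levels of these genes are widely read as a measure of ERK output in lung cancer cells, in which mutations of the pathway are frequent.

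RefSeq promoter sequences (build GRCh38.p14) were found for 6 of the 10 genes. The 250 bases before the transcription start are shown for DUSP6 and SPRY4, which rose most in H460, and for EPHA2, the receptor of the group. Capitals mark a match to 1 of 4 motifs searched on both strands, namely the antioxidant response element core TGACNNNGC, to which NRF2 binds with a small MAF protein, the AP-1 site TGANTCA, the cyclic AMP response element TGACGTCA and the ETS site CCGGAAG.
DUSP6 (chr12:89352502-89352751, minus strand): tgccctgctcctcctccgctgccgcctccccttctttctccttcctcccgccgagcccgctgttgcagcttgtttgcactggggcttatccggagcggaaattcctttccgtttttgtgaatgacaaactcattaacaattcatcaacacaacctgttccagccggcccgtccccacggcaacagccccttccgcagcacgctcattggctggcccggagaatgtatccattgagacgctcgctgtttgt
SPRY4 (chr5:142324248-142324497, minus strand): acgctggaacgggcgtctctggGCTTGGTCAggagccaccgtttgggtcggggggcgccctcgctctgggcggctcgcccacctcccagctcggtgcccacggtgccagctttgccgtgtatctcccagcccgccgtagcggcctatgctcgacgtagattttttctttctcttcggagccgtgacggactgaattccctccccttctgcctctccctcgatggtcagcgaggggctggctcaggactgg
EPHA2 (chr1:16156070-16156319, minus strand): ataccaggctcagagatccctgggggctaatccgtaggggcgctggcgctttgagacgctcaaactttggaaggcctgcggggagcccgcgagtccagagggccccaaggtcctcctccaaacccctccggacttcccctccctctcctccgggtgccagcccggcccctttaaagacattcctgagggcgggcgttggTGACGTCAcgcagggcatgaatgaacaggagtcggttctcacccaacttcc

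The DUSP6 window held none of the 4 motifs. The SPRY4 window held GCTTGGTCA, the antioxidant response element core read on the opposite strand, 228 bases before the start, and the EPHA2 window held the cyclic AMP response element TGACGTCA 51 bases before the start. The windows of PHLDA1, SPRY2 and SPRED1 held no match. Of all 35116 promoter windows of this length, 10.9% held the antioxidant response element core, 6.57% the AP-1 site, 1.65% the cyclic AMP response element and 8.52% the ETS site, and some of these motifs can overlap. A match here describes letters only, and no binding was measured in these libraries.

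The targeted transcript was examined to check the labels. NFE2L2, which encodes NRF2, was at 38.2 and 30.9 FPKM in the A549 control libraries and at 5.31 (siRNA 28) and 7.84 FPKM (siRNA 30) after knockdown. It went from 120 and 118 to 7.74 and 6.80 FPKM in H2023 and from 144 and 99.5 to 6.54 and 12.2 FPKM in H460. FPKM is the number of fragments of a transcript scaled to its length and to the fragments mapped in its library. Relative depth within a line lay between 92.7% and 107% of its first control library, 12732 to 13909 genes per library reached 1 FPKM, and absolute depth is unknown. All 5 epithelial markers (KRT8, KRT18, KRT19, EPCAM and CDH1) reached 1 FPKM in at least 1 library in A549 and H2023, as did 4 of 5 in H460 controls. Their summed level overlapped between the A549 groups (6182 to 9114 FPKM in controls, 7874 to 9195 FPKM after NRF2 siRNA). It went from 2129 to 2547 FPKM in H2023 controls to 4624 to 5273 FPKM, and from 1142 to 1335 FPKM in H460 controls to 1743 to 2606 FPKM. Of 5 measured markers of blood, endothelial and stromal cells, none reached 1 FPKM in A549 and 1, COL1A1, did in H2023 and H460, where the summed level was 1.39 to 3.82 FPKM and 1.85 to 2.20 FPKM in controls and 3.60 to 8.08 FPKM and 5.94 to 5.96 FPKM after knockdown. The share of the FPKM sum from mitochondrially encoded transcripts was 8.56% and 13.1% in H460 controls against 20.8% and 26.0% after NRF2 siRNA, and 11.97% and 18.1% against 17.4% and 22.8% in H2023. The part of marker levels in the results was not tested, and in such bulk samples fewer cells of a kind and less RNA per cell cannot be told apart.

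Whether lowering NRF2 changes the feedback genes was tested in each line. Differences are given as log2 fold changes of NRF2 siRNA against control siRNA on the log2(FPKM + 1) scale, which understates changes of low genes, with their SE and with p-values from limma adjusted over all genes tested in that line. A gene was called at an adjusted p under 0.05. In H460, 4 of the 10 genes were called, where 14% of all 13446 genes tested were called in either direction. DUSP6, SPRY4 and SPRY2 rose, 3 genes beside 7.12% of all genes, and DUSP5 fell, 1 gene beside 6.86%. In A549 and in H2023 none of the 10 was called, where 0.676% of 13898 genes and 0.91% of 14059 genes were, although 6 members in A549 and 4 in H2023 had an unadjusted p under 0.05, against 13.3% and 16.9% of all genes. In the average of the 3 lines, fitted on all 12 libraries, 6 of the 10 were called against 29.7% of 11571 genes tested. SPRY2, SPRY4, DUSP6, PHLDA1 and EPHA2 rose, where 15.2% of all genes did, and DUSP5 fell, where 14.5% did.

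**Figure D1:**
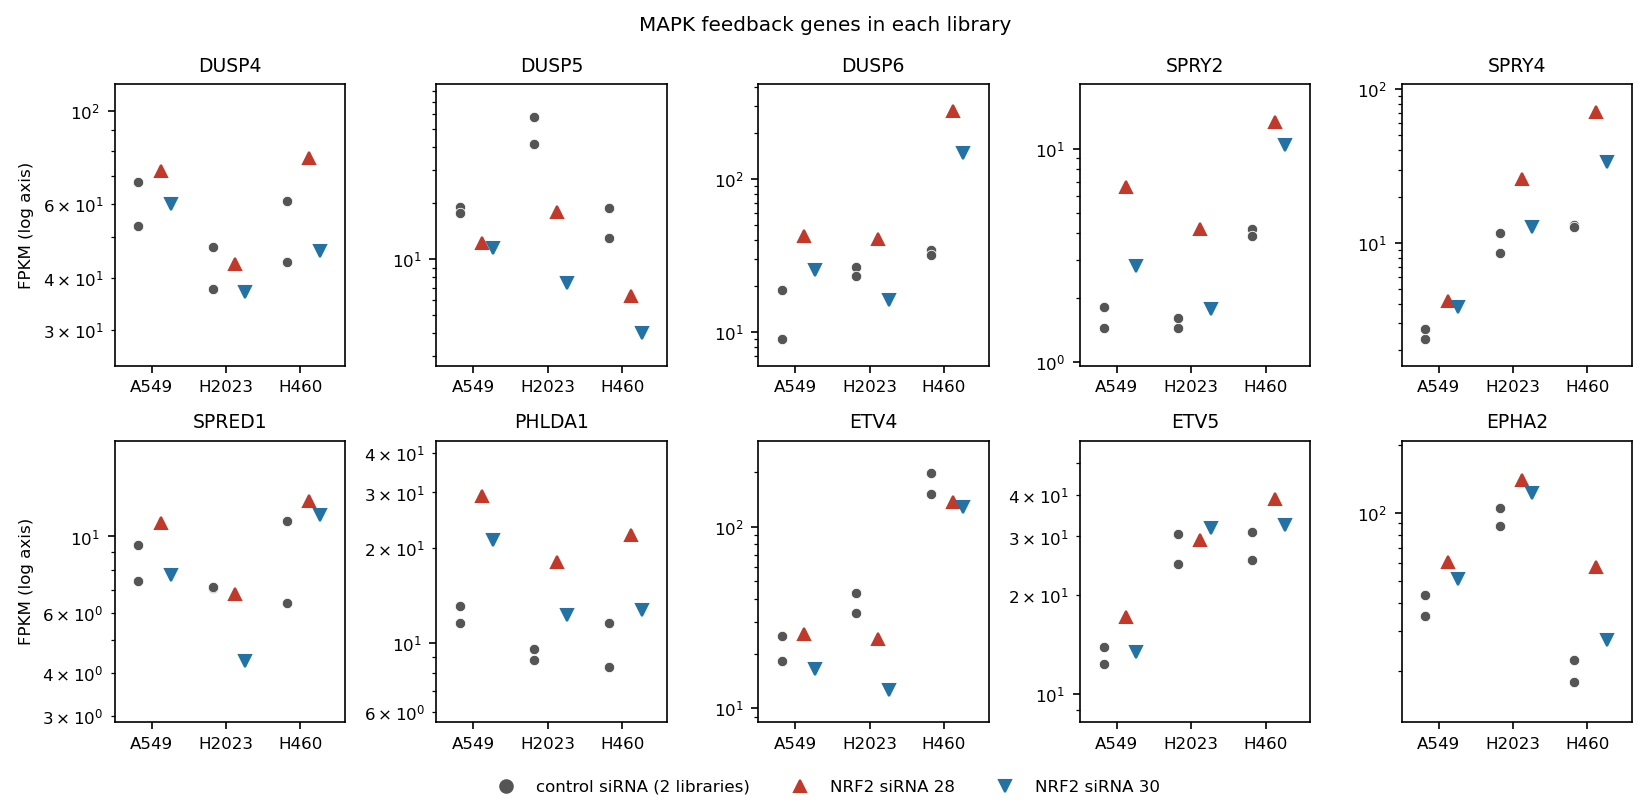
FPKM (log axis, a separate range for each gene) of the 10 MAPK feedback genes in each of the 12 libraries, by cell line. Circles are the 2 control siRNA libraries, upward triangles NRF2 siRNA 28 and downward triangles NRF2 siRNA 30. DUSP6 in H460 went from 34.5 and 32.0 FPKM to 279 and 148 FPKM, while DUSP5 was below both controls in all 3 lines.

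DUSP6 (ENSG00000139318.7, GRCh37 chromosome 12, 89741012 to 89746278, minus strand) encodes a cytoplasmic phosphatase specific for ERK1 and ERK2. In H460 it was at 34.5 and 32.0 FPKM with control siRNA, at 279 FPKM with siRNA 28 and at 148 FPKM with siRNA 30. Both knockdown libraries lay far above both controls, and its log2 fold change was 2.58 ± 0.32 (SE, n = 2 libraries per group, limma adjusted p = 0.0156, 95% interval 1.80 to 3.36). In A549 it was at 18.8 and 9.04 FPKM in controls and at 42.5 (siRNA 28) and 25.3 FPKM (siRNA 30) after knockdown. The A549 groups did not overlap, but the controls themselves were far apart and the log2 fold change of 1.26 ± 0.39 missed the threshold (limma adjusted p = 0.279). In H2023 the controls were at 26.8 and 23.4 FPKM, siRNA 28 was above them at 40.6 FPKM and siRNA 30 below them at 16.3 FPKM. The H2023 groups thus overlapped, with a log2 fold change of 0.05 ± 0.42 (limma adjusted p = 0.970, 95% interval -1.01 to 1.10). That value ran from -0.59 without the siRNA 28 library to 0.68 without the siRNA 30 library, and was -0.05 without control library 1.

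DUSP5 (ENSG00000138166.5, chromosome 10, 112257665 to 112271291, plus strand) encodes a nuclear phosphatase that also acts on ERK. It was the only member below both controls in all 3 lines, an order seen in 7.2% of all genes tested in every line. In H460 it went from 18.8 and 12.96 FPKM to 6.31 (siRNA 28) and 4.01 FPKM (siRNA 30), a log2 fold change of -1.46 ± 0.32 (limma adjusted p = 0.0358). H2023 started higher, at 57.6 and 41.2 FPKM in controls, and stood at 17.8 and 7.41 FPKM after siRNA 28 and 30. Its log2 fold change there was -1.98 ± 0.41 (limma adjusted p = 0.119). The H2023 value was -2.56 without the siRNA 28 library and -1.40 without the siRNA 30 library. With a lone knockdown library, such a fit takes its spread from the control pair alone. In A549 the libraries lay close within each group, at 19.1 and 17.7 FPKM against 12.2 and 11.5 FPKM, giving a log2 fold change of -0.60 ± 0.14 (limma adjusted p = 0.191). Averaged over the lines the log2 fold change was -1.34 ± 0.20 (limma adjusted p = 0.00131).

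DUSP4 (ENSG00000120875.4, chromosome 8, 29190581 to 29208201, minus strand), a further nuclear MAP kinase phosphatase, did not separate the groups in any line. It was at 67.7 and 53.2 FPKM in A549 controls against 71.8 and 59.9 FPKM after siRNA 28 and 30, and at 37.7 and 47.5 FPKM against 43.2 and 37.04 FPKM in H2023. In H460 the values were 61.1 and 43.6 FPKM against 76.9 and 46.2 FPKM. Log2 fold changes ran from -0.08 in H2023 to 0.21 in H460, and the average was 0.08 ± 0.15 (limma adjusted p = 0.705, 95% interval -0.25 to 0.42). The 3 phosphatases therefore had 3 different patterns in H460, with DUSP6 called higher, DUSP5 called lower and DUSP4 overlapping its controls.

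Of the Sprouty genes, SPRY4 (ENSG00000187678.8, chromosome 5, 141689992 to 141706020, minus strand) had both knockdown libraries above both controls in every line. In H460 the controls were nearly equal, at 12.99 and 12.7 FPKM, and the knockdown libraries stood at 71.4 (siRNA 28) and 33.4 FPKM (siRNA 30). The H460 log2 fold change was 1.85 ± 0.37 (limma adjusted p = 0.0303). In H2023 it was at 8.62 and 11.5 FPKM against 26.1 and 12.8 FPKM, where the siRNA 30 library was only just above the higher control. In A549 it was lower throughout, at 2.39 and 2.74 FPKM against 4.19 and 3.80 FPKM. The log2 fold changes of 0.81 ± 0.36 in H2023 and 0.49 ± 0.16 in A549 missed the threshold (limma adjusted p = 0.338 and 0.303). The H2023 value was 1.30 without the siRNA 30 library and 0.32 without the siRNA 28 library. The antisense transcript SPRY4-AS1 overlaps the gene and stood above both controls in all 3 lines, at 2.49 and 3.32 FPKM after siRNA 28 and 30 against 1.52 and 1.48 FPKM in A549, at 4.24 and 3.41 FPKM against 1.48 and 3.19 FPKM in H2023, and at 2.03 and 1.28 FPKM against 0.826 and 0.589 FPKM in H460. Whether strand was used in counting is not given in the sources used here, so its part in the SPRY4 values was not tested.

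SPRY2 (ENSG00000136158.6, chromosome 13, 80910111 to 80915261, minus strand), whose product also restrains receptor signalling to RAS, was the least abundant member per length in the control libraries of each line. It was at 4.20 and 3.88 FPKM in H460 controls and at 13.3 (siRNA 28) and 10.4 FPKM (siRNA 30) after knockdown, a log2 fold change of 1.34 ± 0.27 (limma adjusted p = 0.0303). In A549 it went from 1.80 and 1.44 FPKM to 6.58 and 2.81 FPKM, and in H2023 from 1.44 and 1.61 FPKM to 4.20 and 1.77 FPKM. The order was the same in each line, with siRNA 28 highest and siRNA 30 between it and the controls. The log2 fold changes in A549 and H2023 were 1.04 ± 0.34 and 0.59 ± 0.35 (limma adjusted p = 0.298 and 0.460). Without the siRNA 30 library they were 1.53 and 1.05, and without siRNA 28 they were 0.54 and 0.14.

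SPRED1 (ENSG00000166068.8, chromosome 15, 38545037 to 38649450, plus strand) encodes a Sprouty-related protein that brings the RAS inactivator NF1 to the membrane. In H2023 both knockdown libraries, at 6.80 and 4.33 FPKM, were below the controls at 7.09 and 7.12 FPKM. In H460 both, at 12.7 and 11.5 FPKM, were above the controls at 11.1 and 6.42 FPKM. The A549 values were 9.48 and 7.42 FPKM in controls and 10.96 and 7.71 FPKM after knockdown, and overlapped. None of the log2 fold changes of 0.12 (A549), -0.33 (H2023) and 0.47 (H460) passed the threshold, and neither did the difference between lines (limma F test, adjusted p = 0.437).

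PHLDA1 (ENSG00000139289.9, chromosome 12, 76419227 to 76425556, minus strand), a pleckstrin homology-like protein that restrains receptor tyrosine kinase signalling, was above both controls in both knockdown libraries of every line. It went from 13.03 and 11.5 FPKM to 29.2 and 21.1 FPKM in A549, from 8.81 and 9.51 FPKM to 18.0 and 12.2 FPKM in H2023, and from 11.6 and 8.39 FPKM to 22.0 and 12.7 FPKM in H460. The siRNA 28 library was the highest each time, and in H460 the siRNA 30 library was close to the higher control. Its average log2 fold change was 0.77 ± 0.17 (limma adjusted p = 0.00680). The lines taken alone gave 0.96 (A549), 0.64 (H2023) and 0.71 (H460), and none was called. Without the siRNA 30 library the values were 1.19, 0.91 and 1.08, whereas siRNA 30 alone gave 0.74, 0.38 and 0.33. The antisense transcript PHLDA1-AS1 overlaps the gene on the opposite strand. It was at 5.61 and 4.36 FPKM in A549 controls against 9.10 and 9.74 FPKM after knockdown, at 53.9 and 66.7 FPKM against 101 and 98.0 FPKM in H2023, and at 89.1 and 48.1 FPKM against 134 and 93.6 FPKM in H460. The kit was strand-specific, but whether strand was used in quantification is not given in the sources used here, so the part of antisense reads in the PHLDA1 values was not tested.

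**Figure D2:**
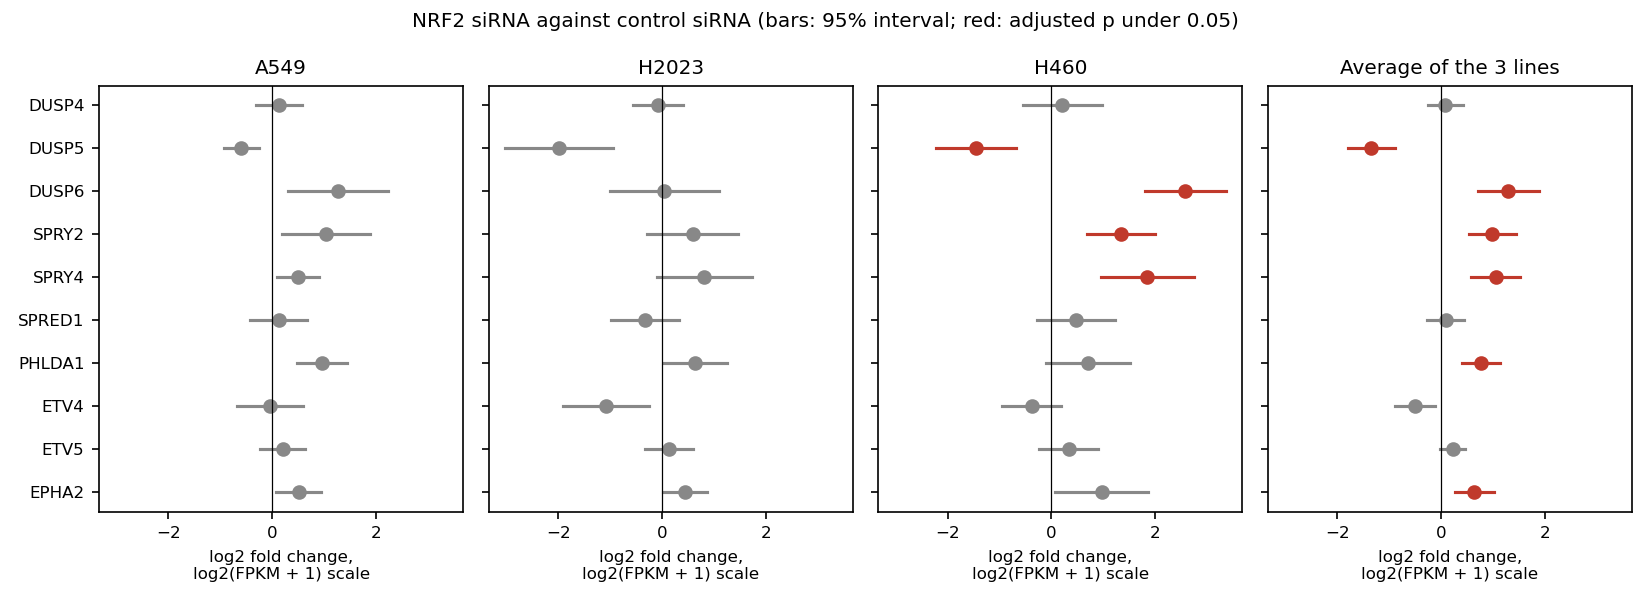
Log2 fold change of NRF2 siRNA against control siRNA on the log2(FPKM + 1) scale for each of the 10 genes (rows) in A549, H2023, H460 and the average of the 3 lines. Points are limma estimates, bars 95% intervals, and red marks an adjusted p under 0.05. In H460 4 genes are red and in the average 6, with DUSP5 on the negative side in all 4 panels.

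The ETS factors ETV4 (ENSG00000175832.8, chromosome 17, 41605212 to 41656988, minus strand) and ETV5 (ENSG00000244405.3, chromosome 3, 185764103 to 185828107, minus strand) belong to the same subfamily of transcription factors and lie downstream of ERK. ETV4 was at 43.2 and 33.3 FPKM in H2023 controls against 23.9 (siRNA 28) and 12.6 FPKM (siRNA 30), and at 198 and 151 FPKM in H460 controls against 137 and 128 FPKM. In both lines the knockdown libraries were below the controls. In A549 the groups overlapped, at 24.9 and 18.1 FPKM against 25.6 and 16.5 FPKM. The log2 fold changes of -1.08 ± 0.33 in H2023, -0.38 ± 0.23 in H460 and -0.04 ± 0.26 in A549 were not called. Without the siRNA 28 library the H2023 value was -1.51, and without siRNA 30 it was -0.64. In the fit of all lines the average of -0.50 ± 0.18 lay just outside the threshold (limma adjusted p = 0.0559). That average was -0.60 without the A549 siRNA 28 library and -0.65 without the H2023 siRNA 28 library.

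ETV5 was at 12.4 and 13.9 FPKM in A549 controls against 17.1 and 13.5 FPKM, at 24.7 and 30.6 FPKM in H2023 controls against 29.2 and 31.9 FPKM, and at 30.9 and 25.5 FPKM in H460 controls against 38.9 and 32.5 FPKM. Only in H460 did the groups not overlap, and its average log2 fold change was 0.22 ± 0.11 (limma adjusted p = 0.150). DGKG, a diacylglycerol kinase gene annotated on the same strand over ETV5, lay the other way, with both knockdown libraries below both controls in each line. It was at 9.86 and 8.95 FPKM in A549 controls against 4.07 and 2.87 FPKM, at 12.6 and 11.4 FPKM against 3.19 and 4.06 FPKM in H2023, and at 13.3 and 10.6 FPKM against 4.01 and 3.15 FPKM in H460. The part of reads shared between the 2 genes in the ETV5 values was not tested. DHX8, on the opposite strand over ETV4, lay between 13.3 and 19.8 FPKM in all libraries.

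EPHA2 (ENSG00000142627.9, chromosome 1, 16450832 to 16482564, minus strand) encodes an ephrin receptor tyrosine kinase that is a known transcriptional output of ERK. It was at 43.3 and 34.9 FPKM in A549 controls against 60.5 (siRNA 28) and 51.0 FPKM (siRNA 30). In H2023 it went from 87.7 and 105 FPKM to 140 and 123 FPKM, and in H460 from 22.2 and 17.7 FPKM to 57.4 and 27.4 FPKM. Both knockdown libraries were above both controls in each line, although the 2 siRNAs were far apart in H460. The log2 fold changes were 0.51 ± 0.17, 0.44 ± 0.17 and 0.97 ± 0.37 in A549, H2023 and H460 (limma adjusted p = 0.309, 0.287 and 0.125). The H460 value was 1.49 without the siRNA 30 library and 0.45 without siRNA 28. The average over the lines was 0.64 ± 0.17 (limma adjusted p = 0.0178). That average was 0.59 without A549 control library 1, 0.60 without the A549 siRNA 28 library and 0.60 without H2023 control library 0. With no filter on low values it was 0.64 and lost its call (limma adjusted p = 0.0841). All genes called were then 3565 of 38406, beside 3437 of 11571.

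Across the members, both knockdown libraries were above both controls for 5 genes in A549, 4 in H2023 and 7 in H460, against 25.2%, 27% and 31.1% of all genes tested. They were below for 1, 3 and 2 genes, against 20.5%, 22% and 31.6%. SPRY2, SPRY4, PHLDA1 and EPHA2 were above in all 3 lines, as were 8.18% of genes tested in every line. The 10 genes had median log2 fold changes of 0.34 (A549), 0.09 (H2023) and 0.59 (H460), beside 0.02, 0.02 and -0.01 over all genes tested. The H2023 median ran from -0.025 without the siRNA 28 library to 0.31 without the siRNA 30 library, so its sign rests on single libraries, and the H460 median from 0.35 without control library 1 to 0.87 without control library 0. For the average effect it was 0.43, beside -0.01. Each group holds 2 libraries, which the study's methods call biological duplicates, and p-values here measure the spread between these libraries. The H460 calls for DUSP6, SPRY4, SPRY2 and DUSP5 were all lost when either H460 control library was left out or when genes of low values were kept in the fit. All genes called in H460 then fell from 1879 to 0 without control library 0, to 5 without control library 1 and to 0 with no filter. With an siRNA library left out more genes were called in the whole table, 231 and 272 in A549, 1532 and 1420 in H2023 and 3128 and 2283 in H460 without siRNA 28 and 30, beside 94, 128 and 1879. Without control library 0 and 1 the log2 fold changes were 2.63 and 2.53 for DUSP6, 1.87 and 1.83 for SPRY4, 1.39 and 1.29 for SPRY2, and -1.21 and -1.71 for DUSP5.

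The mitochondrial share of the FPKM sum was higher in both H460 knockdown libraries than in both H460 controls, while the H2023 groups overlapped. With those transcripts left out and the rest rescaled, the H460 log2 fold changes were 2.73 for DUSP6, 1.997 for SPRY4, 1.47 for SPRY2 and -1.32 for DUSP5, and the same 4 genes were called. The median of all genes in H460 moved to 0.12 under that scaling, from -0.01.

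Whether the effect of NRF2 siRNA differed between lines was tested in the fit of all 12 libraries. None of the 10 genes was called by the limma F test, against 2.51% of 11571 genes, and 1, DUSP6, had an unadjusted p under 0.05, against 21.2% (adjusted p = 0.106). The effect on DUSP6 in H460 exceeded that in H2023 by 2.53 ± 0.65 on the log2 scale (95% interval 1.10 to 3.97, limma adjusted p = 0.0584), a contrast that 3.32% of all genes passed. The adjusted p of the F test was 0.245 for DUSP5 and 0.254 for SPRY4. Without the H2023 siRNA 28 library DUSP6 and DUSP5 passed (adjusted p = 0.0375 and 0.0449), as did 628 of 11460 genes tested. The interval of the H460 to H2023 difference was -0.11 to 2.18 for SPRY4 and -0.35 to 1.85 for SPRY2. The effect on SPRY4 in H460 exceeded that in A549 by 1.36 ± 0.52 (95% interval 0.22 to 2.51), which did not pass over all genes (limma adjusted p = 0.159).

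**Figure D3:**
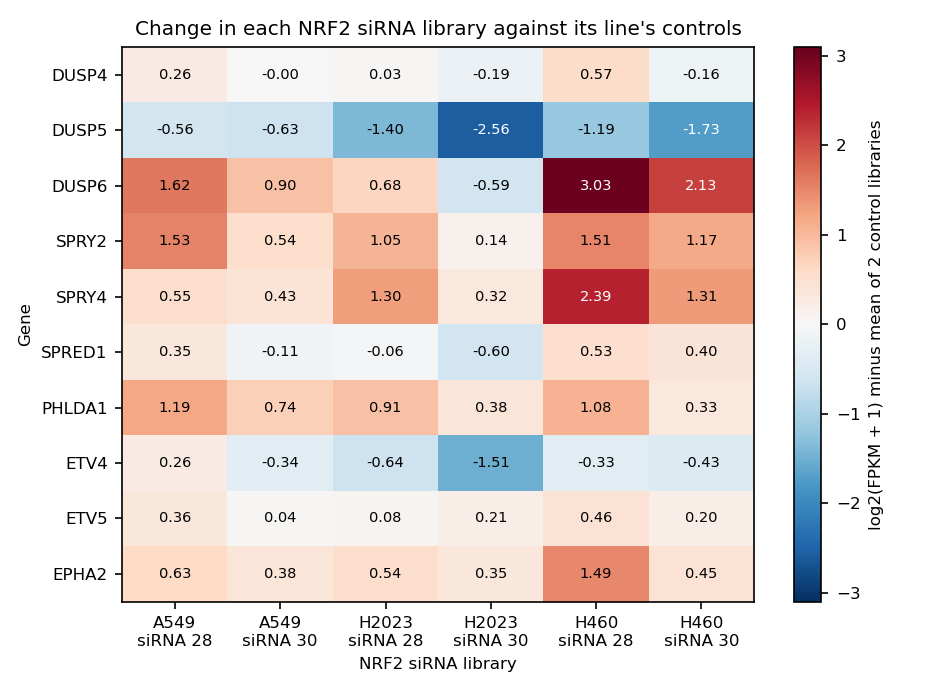
Log2(FPKM + 1) of each NRF2 siRNA library minus the mean of its line's 2 control libraries, for the 10 genes (rows) and the 6 knockdown libraries (columns). Red is higher and blue lower than the controls, on the scale of the colour bar. DUSP6 in H2023 was 0.68 with siRNA 28 and -0.59 with siRNA 30, and the 6 values of DUSP5 were all negative.

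The knockdown libraries were next compared by siRNA. The siRNA 28 library was higher than the siRNA 30 library in all 3 lines for 9 of the 10 genes, all but ETV5, an order held by 24.2% of 15716 genes tested. Fitted over the 3 lines, the difference of siRNA 28 minus siRNA 30 was positive for all 10, with a median of 0.55 on the log2 scale beside 0.02 for all genes. It was 0.96 ± 0.15 for DUSP6, 0.75 ± 0.20 for SPRY2, 0.72 ± 0.22 for SPRY4, 0.59 ± 0.24 for DUSP5 and 0.58 ± 0.14 for PHLDA1. No member passed in limma, the smallest adjusted p being 0.126 for DUSP6, and 0% of all genes tested passed. An unadjusted p under 0.05 was reached by 6 members and by 18.2% of all genes. With the siRNAs as separate groups in 1 fit of all 12 libraries, SPRY2 and SPRY4 passed (adjusted p = 0.0261 and 0.0335), as did 1449 of 15716 genes. Each siRNA then had 1 library a line, and the spread came from the control pairs alone. Both siRNAs are set against the same controls within a line, so their 2 differences from control are not independent.

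The siRNA number cannot be told apart from the library number, since siRNA 28 is library 0 in each line. Control libraries received no NRF2 siRNA, and control library 0 was above control library 1 for 8 of the 10 genes in A549, 3 in H2023 and 10 in H460, against 69.6%, 52.8% and 54.8% of genes tested. The median difference of library 0 minus library 1 over the 10 genes was 0.25, -0.10 and 0.35 on the log2 scale in controls of A549, H2023 and H460. Over all genes tested it was 0.098, 0.019 and 0.038 in these controls. In the knockdown libraries it was 0.39, 0.71 and 0.63 over the 10 genes, beside 0.070, 0.015 and 0.013 over all genes tested. The remaining NFE2L2 level did not order the libraries alike, being lower with siRNA 28 in A549 and H460 and higher in H2023 (siRNA 28 minus siRNA 30 of -0.38 ± 0.23, limma adjusted p = 0.438).

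Levels in control siRNA libraries were compared between H2023 and H460, which share a library protocol. Of the 10 genes 4 were called, against 48.8% of 14039 genes tested, with 2 higher in H460 (24.6% of all genes) and 2 lower (24.2%). With mitochondrial transcripts left out the same 4 were called, while all genes called split into 2501 higher and 4282 lower and the median of all genes moved from 0.03 to -0.16. ETV4 was higher in H460 by 2.16 ± 0.20 on the log2 scale (198 and 151 FPKM against 43.2 and 33.3 FPKM, limma adjusted p = 0.000658). So was SPRY2, by 0.998 ± 0.19 (limma adjusted p = 0.00726, or 0.0516 with no filter on low values), and by 0.95 without H2023 control library 0. EPHA2 was lower in H460, by -2.22 ± 0.17 (22.2 and 17.7 FPKM against 87.7 and 105 FPKM, adjusted p = 0.000402), and so was DUSP5, by -1.58 ± 0.24 (adjusted p = 0.00362, or 0.0619 with no filter). DUSP6 did not differ beyond the threshold before knockdown (difference 0.39 ± 0.15, adjusted p = 0.0676). By mean FPKM the H460 controls ran from ETV4, DUSP4 and DUSP6 at the top to SPRED1 and SPRY2 at the bottom, whereas EPHA2, DUSP5 and DUSP4 led in H2023.

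Genes near these in the pathway were read from 3 further lists. Of 22 genes of the RAS-ERK cascade itself, from SOS and RAS to ERK and RSK, all were tested and none was called in limma in any line, with 0, 4 and 3 at an unadjusted p under 0.05 in A549, H2023 and H460, against 13.3%, 16.9% and 33.7% of all genes tested. In the average 4 were called, against 29.7% of all genes. SOS1 and SOS2, exchange factors that load RAS, rose by 0.35 ± 0.10 and 0.38 ± 0.12 on the log2 scale (adjusted p = 0.0223 and 0.0435). The phosphatase gene PTPN11 and the MEK gene MAP2K2 fell, with values of -0.31 ± 0.10 and -0.41 ± 0.13 (adjusted p = 0.0325 and 0.0380). The median of the cascade list was 0.07.

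Of 17 other feedback genes, 13 were tested in H460 and 2 were called, against 14% of all genes. DUSP1, a nuclear phosphatase of several MAP kinases, went from 14.3 and 35.2 FPKM to between 101 and 121 FPKM (log2 fold change 2.25 ± 0.41, limma adjusted p = 0.0256). DUSP9, an ERK phosphatase, was between 2.24 and 3.45 FPKM in controls and between 0.64 and 0.84 FPKM after knockdown (-1.13 ± 0.29, limma adjusted p = 0.0487). It met the filter on low values through its 2 controls alone, both knockdown libraries being under 1 FPKM, so its call is a description and no support for a change of the list. No gene of this list was called in A549 (11 tested, 1 at an unadjusted p under 0.05) or in H2023 (12 tested, 1 likewise), beside 0.676% and 0.91% of all genes called and 13.3% and 16.9% with such a p. In the average 2 of 10 tested were called, against 29.7% of all genes, with DUSP1 at 0.85 ± 0.23 and DUSP10, a phosphatase of stress kinases, at 0.54 ± 0.16 (limma adjusted p = 0.0208 and 0.0304). Of the 2 controls of DUSP10, 1 was under 1 FPKM in each line. The list median was 0.32, beside -0.01 over all genes.

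Of 23 other ERK-induced genes, 8 of 19 tested were called in H460, 4 higher and 4 lower, against 14% of all genes. None was called in A549 (21 tested, 6 at an unadjusted p under 0.05) or H2023 (19 tested, 8 likewise), where 0.676% and 0.91% of all genes were called and 13.3% and 16.9% had such a p. MYC, the growth-promoting transcription factor, went from between 299 and 495 FPKM to between 35.2 and 70.1 FPKM in H460 (-2.93 ± 0.40, limma adjusted p = 0.0168). FOSL1, an AP-1 subunit, was between 52.4 and 71.4 FPKM in controls and between 5.71 and 20.2 FPKM after knockdown (-2.38 ± 0.52, adjusted p = 0.0360), and the ETS factor ETS1 fell too (-1.58 ± 0.31, adjusted p = 0.0294). In the opposite direction PLAUR, the urokinase receptor gene, went from between 15.9 and 20.1 FPKM to between 82.0 and 95.9 FPKM (2.25 ± 0.23, adjusted p = 0.0120). IER2, an immediate early gene, rose as well (1.68 ± 0.23, adjusted p = 0.0168). Genes known to be induced by ERK thus moved both ways in the same line. In the average 6 were called higher and 3 lower of 18 tested, against 15.2% and 14.5% of all genes, with PLAUR at 1.21, IER3 at 1.17 and IER2 at 0.96, and MYC, FOSL1 and ETS1 at -1.32, -1.26 and -0.94.

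**Figure D4:**
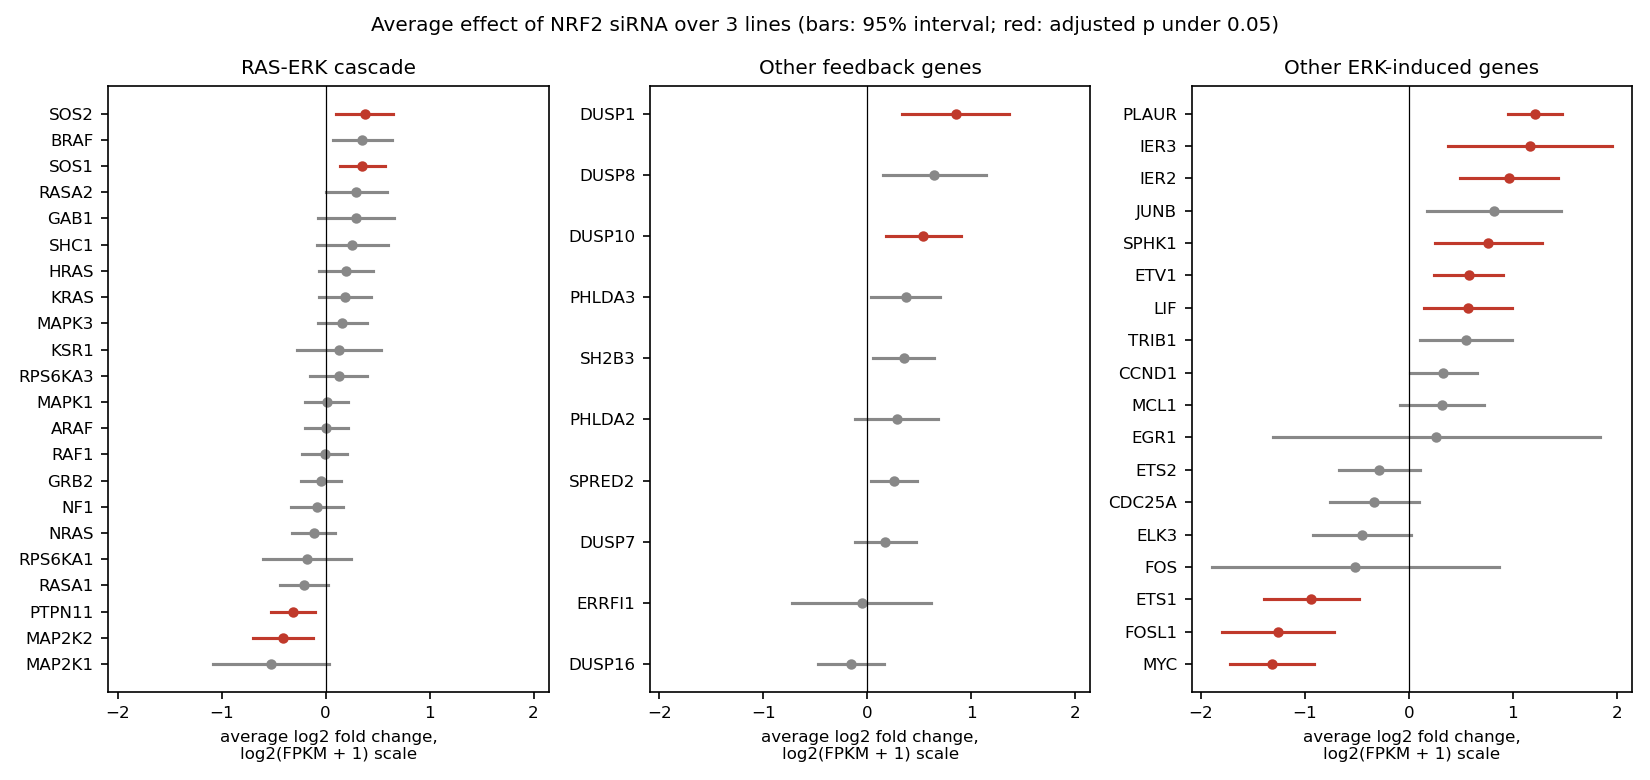
Average log2 fold change of NRF2 siRNA against control over the 3 lines (log2(FPKM + 1) scale) for genes of the RAS-ERK cascade, other feedback genes and other ERK-induced genes that were tested. Points are limma estimates, bars 95% intervals, and red marks an adjusted p under 0.05. The cascade genes have a median of 0.07, with 4 of 22 called, while MYC at -1.32 and PLAUR at 1.21 lie at opposite ends of the ERK-induced genes.

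The genes whose changes were most like those of DUSP6 over the 6 knockdown libraries were an unnamed gene (ENSG00000267601), PARM1, YPEL3, PDK4 and KCNN4, with root mean square differences of 0.42, 0.48, 0.50, 0.51 and 0.51 on the log2 scale. Among 11571 genes ranked by this distance, SPRY4 stood at 57 (0.78), SPRY2 at 77 (0.82), EPHA2 at 521 and PHLDA1 at 709, and DUSP5 at 11407. The 6 points share their line's controls in pairs, so the distance is a description.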

How the data were processed

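RNA of 12 libraries (3 lines, control or NRF2 siRNA, 2 libraries per group) was analysed, grouped by GEO's labels. The authors deposited FPKM values per library. Per the study's methods these came from TopHat and Cufflinks on hg19, whereas the submitters' processing notes name STAR 2.5.3a, Cuffnorm, HTSeq, DESeq2, cutadapt 1.15 and bcl2fastq 2.15.0. FPKM is already scaled to length and library size, so count models were not used. The authors' DESeq2 tables hold mean normalised counts, fold changes, standard errors, Wald statistics and p-values, and were not used.

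Here 12710 FPKM under 1e-06 were set to 0, and 96.1% of gene identifiers were matched to symbols by GENCODE lifted to GRCh37. Genes at 1 FPKM or more in at least 2 libraries of a fit (of every line for the average and the difference between lines) were tested with limma 3.58.1 in R 4.3.3 on log2(FPKM + 1), with a variance trend and Benjamini-Hochberg adjustment over all genes tested. Each line was fitted on its 4 libraries (2 residual degrees of freedom), the average and the difference on all 12 (6 residual degrees of freedom), the siRNAs on the 6 NRF2 siRNA libraries with line as covariate, and the lines' levels on 4 control libraries. Python 3.11.15, pandas 2.3.3, numpy 2.4.6 and matplotlib 3.10.9 were used. The text names the members, the targeted gene, at most 5 called genes per list and line in order of the absolute average change, and the 5 genes nearest to DUSP6. The members, lists, filter and variance trend were chosen with earlier results of these data known. DUSP14 and PECAM1 were not matched by symbol.

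The tests were checked on simulated data with known changes. Drawn with each gene's own variance, the H460 test called none of the changed genes. A second simulation with variances moderated across genes, added after that was seen, gave calls for most of the larger changes in every comparison. False calls exceeded the share that the threshold allows for the average effect and the difference between lines under both simulations, and for each line and the control comparison under the second, so these adjusted p-values are optimistic.

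Alternatives were a pseudocount of 0.1, no filter, no trend, median of ratios scaling, mitochondrial transcripts left out, the replicate number as a block, 1 fit of all 12 libraries and leaving out each library.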

Additional observations from a re-analysis of the deposited data

Results flagged for a closer look

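SPRED1 lay on opposite sides of its controls in 2 lines. Both NRF2 siRNA libraries were below both controls in H2023 (log2 fold change -0.33) and above both in H460 (0.47). Of all genes tested, 22% lay below both controls in H2023 and 31.1% above both in H460. The nearest SPRED1 values were close, at 6.80 against 7.09 FPKM in H2023 and 11.5 against 11.1 FPKM in H460. The limma F test of the difference between lines did not pass (adjusted p = 0.437).

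Among the ERK-induced genes outside the 10, 2 of 18 tested were called by the limma F test of the difference between lines, against 2.51% of 11571 genes. These were MYC (adjusted p = 0.0327) and PLAUR (adjusted p = 0.0306). The log2 fold changes of MYC were -0.50 in A549, -0.53 in H2023 and -2.93 in H460, while those of PLAUR were 0.97, 0.42 and 2.25. Over 18 alternatives the MYC call was lost in 9 and the PLAUR call in 8, with adjusted p from 0.0152 to 0.141 and from 0.0179 to 0.0903. Both were lost without either control or either siRNA library of A549, without either H2023 control library and without H460 control library 0. MYC was also lost with no filter on low values (0.0815) and with the replicate number as a block (0.0703), and PLAUR without H460 control library 1 (0.0813).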

How the results depend on the processing

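Depth in reads is unknown, and each group holds 2 libraries, so the limits are those of library spread. Of the members' log2 fold changes and adjusted p-values, 441 kept direction and side of the threshold under the alternatives that keep all libraries, 8 crossed to a call, 7 lost one and 4 reversed. The 441 do not measure stability, since a value not called in the main fit could not lose a call. With no filter, no gene of the whole table was called in A549, in H2023 or between siRNAs either. The number of members called in H460 went from 4 to 0 with no filter on low values, where no gene in the whole table was called, and the number called between H2023 and H460 controls from 4 to 2 (DUSP5 and SPRY2 lost), with all genes called at 4580 of 30575, beside 6857 of 14039. The cause was not tested. In 1 fit of all 12 libraries 1 member was called in H2023, 5 in H460 (EPHA2 added) and 2 between siRNAs, while all genes called went from 128 to 748, from 1879 to 4585 and from 0 to 1449. Leaving out mitochondrial transcripts turned the H2023 values of DUSP4 to 0.018 and of PTPN11 to 0.068, and the control differences between H460 and H2023 of PHLDA1 to -0.10 and of ETV5 to -0.18. Median of ratios scaling turned the latter to -0.025. Under the mitochondrial alternative all genes called in H460 split into 1189 higher and 583 lower, beside 957 and 922, and in the average into 1830 and 1184, beside 1763 and 1674.

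With a library left out, the lone library of a group is assumed to vary like the others. Over the whole table, genes called between controls were fewer than in the main fit, whichever control library was left out. In the average they were more without the H460 siRNA 28 library and fewer without any other library. The member counts with a library left out are to be read beside these shifts. Members called then ranged from 0 to 2 in A549 (2 without the siRNA 30 library), 0 to 3 in H2023 (2 and 3 without the siRNA 28 and siRNA 30 library), 0 to 6 in H460 (0 without either control, 6 without the siRNA 30 library), 5 to 7 in the average, 3 to 5 between controls and 0 to 2 for the difference between lines (2 without the H2023 siRNA 28 library). The siRNA comparison stayed at 0. All genes called moved too, to 272 in A549 without the siRNA 30 library (from 94), to 1532 and 1420 in H2023 without the siRNA 28 and 30 library, to 0 and 12 there without control library 0 and 1, to 0 and 5 in H460 without control library 0 and 1, to 2283 there without the siRNA 30 library, and to 628 for the difference between lines without the H2023 siRNA 28 library (from 290). That last count ran from 3 without H460 control library 0 to 770 without the H460 siRNA 28 library, with 7 and 10 without A549 control library 0 and 1 and 11 and 12 without H2023 control library 0 and 1. The median over the members ranged from -0.025 (without the siRNA 28 library) to 0.31 (without the siRNA 30 library) in H2023 and from 0.35 (without control library 1) to 0.87 (without control library 0) in H460. Values that changed sign ranged, in A549, from -0.045 to 0.30 for DUSP4, -0.11 to 0.35 for SPRED1, -0.34 to 0.26 for ETV4, -0.56 to 0.44 for DUSP1 and -0.043 to 1.08 for IER2. In H2023 they ranged from -0.24 to 0.085 for DUSP4, -0.59 to 0.68 for DUSP6, -0.00562 to 0.29 for ETV5, -0.058 to 0.27 for SOS2, -0.080 to 0.025 for PTPN11 and -0.092 to 0.14 for DUSP9. In H460 DUSP4 ranged from -0.16 to 0.57. In the average DUSP4 ranged from -0.036 to 0.21 and SPRED1 from -0.031 to 0.20, and between controls SPRED1 ranged from -0.13 to 0.57, PHLDA1 from -0.11 to 0.31 and ETV5 from -0.12 to 0.18.

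Control and NRF2 siRNA libraries share the numbers 0 and 1. Deviations of same-numbered libraries correlated across genes at -0.032 in A549, 0.31 in H2023 and 0.16 in H460, so the numbers were not taken to pair libraries. With the replicate number as a block, 2 members were called in H2023 (DUSP5 and ETV4, limma adjusted p = 0.00889 and 0.0379), 5 in H460 (EPHA2 added, 0.0282) and 7 in the average (ETV4 added, 0.0116), and the counts in A549, for the difference between lines and between controls did not move. All genes called were then 711 in H2023, 3177 in H460 and 3618 in the average, beside 128, 1879 and 3437, and fell from 290 to 76 for the difference between lines.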
